A study of Mus musculus with 5 samples.

Results

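Ms4a4a, Ms4a4b, Ms4a4c, Ms4a6b, Ms4a6c, Ms4a6d and Ms4a7 are 7 genes of one cluster on mouse chromosome 19. They were found by symbol among the 55573 genes counted in bulk RNA sequencing of brains that carried GL261 tumors. The question put to the data was whether the level of these genes differed between hemispheres opened by ultrasound and hemispheres of control mice. Mice entered the study once bioluminescence showed a growing tumor. All were C57BL/6 females, inoculated at 7 to 8 weeks of age into the right caudate putamen with GL261, a mouse glioma line that had been given a luciferase/mKate2 vector. The controls, labelled Vehicule (vehicle below), received inVivoPure pH 6.5 Dilution Buffer. The others had ultrasound-mediated blood-brain barrier opening (UMBO), in which pulsed ultrasound acts on SonoVue microbubbles circulating in the vessels. Both groups were treated on days 21 and 24 and the right hemisphere was taken 24 h after the last session. Here 3 vehicle and 2 UMBO libraries were analysed, and the labels do not say whether UMBO mice also received the buffer. The study's methods describe a further mouse, which was not analysed here.

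MS4A proteins cross the membrane 4 times and sit in the surface or endosomal membranes of blood and immune cells. The best known are CD20 on B cells, encoded by Ms4a1, and the beta chain of the high-affinity IgE receptor on mast cells, encoded by Ms4a2. Several members are genes of macrophages, where MS4A4A is known to associate with the receptor dectin-1, and variants at the human cluster are linked to soluble TREM2 and to the risk of Alzheimer's disease. In brain, Ms4a7 is used as a marker of border macrophages and of macrophages that derive from blood monocytes, as opposed to resting microglia.

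The members lie close together in a cluster whose Ms4a genes span 678559 bases in all. In GENCODE M21 on GRCm38 the 7 genes lie between 11321039 and 11604849 of chromosome 19, a span of 283811 bases, with Ms4a7 (11321039 to 11336146) and Ms4a6d (11586604 to 11604849) on the reverse strand at the outer ends. Between them, on the forward strand, come Ms4a4a (11375523 to 11392790), Ms4a4c (11404770 to 11427246), Ms4a4b (11443553 to 11467055), Ms4a6c (11469366 to 11482192) and Ms4a6b (11516512 to 11531256). Upstream sequence was found for 6 of the 7 genes in the RefSeq promoters of GRCm38.p6, which gave 7 start sites. Ms4a6d had none. Ms4a4c and Ms4a4b are neighbors, and their upstream sequences are alike, with 189 identical bases among the 229 aligned in the 250 bases before the start (82.5%). Stretches of 120 bases of both are shown because these 2 genes were the least alike of the family in profile over the libraries (below). The Ms4a4c stretch is chr19:11407541-11407660 and the Ms4a4b stretch is chr19:11443433-11443552, both on the forward strand, and capitals mark the letters GGAAGT.
Ms4a4c: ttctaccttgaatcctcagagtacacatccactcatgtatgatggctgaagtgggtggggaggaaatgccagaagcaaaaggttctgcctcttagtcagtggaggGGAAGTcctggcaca
Ms4a4b: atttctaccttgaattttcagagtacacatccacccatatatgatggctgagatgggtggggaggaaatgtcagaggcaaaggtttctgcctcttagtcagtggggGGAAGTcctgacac

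GGAAGT is the core bound by ETS factors, the class to which the myeloid factor PU.1 belongs. These letters, searched on both strands of the 250 bases, were found in 5 of the 7 member promoters, against 19.7% of the 32817 promoters searched. By gene this was 5 of the 6 with a sequence. Among the 5, Ms4a4c resembles Ms4a4b and Ms4a6c resembles Ms4a6b in sequence, so they are not separate occurrences. In Ms4a4c, Ms4a7, Ms4a6c and Ms4a4b the match began 15, 15, 16 and 19 bases before the RefSeq start site. For Ms4a4c that start (11407661) lies inside the GENCODE gene, which begins at 11404770, and the match lies outside its exons. Ms4a6b had matches 85 and 43 bases before its RefSeq start, inside an exon of GENCODE M21. Short windows around the match are printed for the 3 genes not shown above, in the sense of each gene and with the match in capitals, at chr19:11469340-11469367 (Ms4a6c, forward), chr19:11518462-11518491 (Ms4a6b, forward) and chr19:11336147-11336173 (Ms4a7, reverse, where the match reads as its reverse complement).
Ms4a6c: ctttctgatataGGAAGTacaggcacag
Ms4a6b: ctttctgatataGGAAGTacaggcacaata
Ms4a7: gtaatcacgagtACTTCCggggaaagc

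The windows of Ms4a6c and Ms4a6b are alike, and the 2 upstream regions shared 153 of 173 aligned bases (88.4%). Ms4a4a had no GGAAGT. An interferon-stimulated response element (GAAA, any 2 bases, GAAA), a PU.1-IRF composite element (GGAA, any 2 bases, GAAA) and a STAT site (TTC, any 3 bases, GAA) were found in none of the 7 windows, against 2.97%, 2.30% and 7.01% of all promoters. The AP-1 site TGANTCA was found once, 81 bases before the second start of Ms4a7, against 6.75%. The first 2 of these motifs can overlap each other. A match describes letters only, and binding was not measured here.

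The libraries held 59736771 to 86164159 counted reads. Neuronal, astrocyte and oligodendrocyte markers were present in all 5 (summed 2230 to 7436, 3624 to 5838 and 5270 to 6127 CPM, reads scaled to the TMM-normalized library size). UMBO replicate 2 stood apart on the largest component of variation, at 133.7 where the others lay between -68.4 and 17, and its summed neuronal markers were the lowest. The members' fold changes are therefore given with and without it. Since whole tissue was sequenced, fewer cells of a type and less RNA per cell cannot be told apart. In the comparison of UMBO with vehicle by edgeR's quasi-likelihood test, 0 of 23592 genes had an adjusted p under 0.05 and 1738 (7.37%) had an unadjusted p under 0.05, while the DESeq2 Wald test called 42 genes (0.182%) after adjustment.

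The 7 Ms4a genes were scarce, with 532 reads in all in vehicle replicate 1, 1825 in vehicle replicate 2, 1076 in vehicle replicate 3, 1587 in UMBO replicate 1 and 7873 in UMBO replicate 2. Levels of different genes were compared as RPKM (CPM per 1000 exonic bases). On this scale Ms4a6c and Ms4a6d led in both groups. Ms4a6c was at 1.77 ± 1.33 RPKM (SD, n = 3 vehicle libraries) and at 10.3 ± 11.2 RPKM (SD, n = 2 UMBO libraries). Ms4a6d was at 1.62 ± 1.13 and 7.27 ± 7.36 RPKM. Ms4a4c, Ms4a6b and Ms4a4a followed with vehicle means of 0.859, 0.847 and 0.761 RPKM, then Ms4a7 at 0.326 and Ms4a4b at 0.206. Between no neighbors in this order did the difference of the vehicle means exceed the larger of their 2 SDs, which for the last 4 genes were 0.371, 0.667, 0.236 and 0.0900 RPKM. The order depended on the length used. An alternative added after the data were seen used the median length of the protein-coding transcripts. By it the vehicle means were 2.67 RPKM for Ms4a6d, 2.19 for Ms4a4c, 1.97 for Ms4a6c, 1.74 for Ms4a6b and 1.31 for Ms4a7.

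The 4 members best known from macrophages were each highest in UMBO replicate 2. Ms4a4a, the dectin-1 partner, was at 0.254, 1.28 and 0.378 CPM in vehicle replicates 1 to 3 and at 1.08 and 6.20 CPM in UMBO replicates 1 and 2. UMBO replicate 1 thus lay below vehicle replicate 2, and the groups overlapped. The counts behind them were 92 (95% Poisson interval 74.2 to 112.8) and 86 (68.8 to 106.2), an interval that covers counting error only. The log2 fold change of Ms4a4a was 2.52 (standard error 0.943), with an unadjusted p of 0.0371 and an adjusted p of 0.497 in edgeR.

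Ms4a6c, a gene of monocytes, measured 1.47, 6.71 and 2.72 CPM with vehicle and 4.98 and 37.4 CPM with UMBO. UMBO replicate 2 was 7.5 times UMBO replicate 1 and 5.58 times the highest vehicle library, and UMBO replicate 1 was again below vehicle replicate 2. Its log2 fold change was 2.55 (standard error 0.939), with an unadjusted p of 0.0352 in edgeR. The count of Ms4a6c is uncertain, because 1088 of its 2050 exonic bases overlap exons of BE692007 on the opposite strand and the strand setting of the count is unknown here. BE692007 itself held 8 to 39 reads, against 110 to 2449 for Ms4a6c.

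Ms4a6d, a macrophage gene at the far end of the stretch that holds the members, was at 1.32, 5.01 and 2.07 CPM with vehicle. With UMBO it was at 3.58 and 21.6 CPM. Ms4a7 was at 0.535, 2.60 and 1.23 CPM with vehicle and at 1.90 and 11.1 CPM with UMBO. In both genes 1 of the 2 UMBO libraries lay inside the vehicle range. The log2 fold changes were 2.17 (standard error 0.852) for Ms4a6d and 2.16 (standard error 0.888) for Ms4a7, with unadjusted p of 0.0438 and 0.0514 in edgeR.

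Ms4a4c and Ms4a6b, which are transcribed in both myeloid cells and lymphocytes, had the widest and the narrowest spread of the 6 members other than Ms4a4b. Ms4a4c was at 0.374, 3.43 and 0.709 CPM with vehicle, so that vehicle replicate 2 was 9.15 times vehicle replicate 1 without any difference in treatment. It was at 1.37 CPM in UMBO replicate 1, under the vehicle mean of 1.5, and at 18.6 CPM in UMBO replicate 2. Its log2 fold change of 2.74 was the largest in the family but also had the largest standard error (1.27), and its unadjusted p in edgeR was 0.0742.

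Ms4a6b was at 2.17, 5.49 and 3.74 CPM with vehicle and at 4.63 and 18.8 CPM with UMBO, and its unadjusted p in edgeR was 0.0462 at a log2 fold change of 1.62 (standard error 0.647). Between the vehicle libraries it varied 2.53-fold, against 9.15-fold for Ms4a4c.

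Ms4a4b, a gene of T cells, ordered the libraries otherwise. With vehicle it was at 0.990, 2.57 and 1.87 CPM, against 1.03 CPM in UMBO replicate 1 and 6.57 CPM in UMBO replicate 2. UMBO replicate 1 was thus close to the lowest vehicle library, with 88 reads (95% Poisson interval 70.6 to 108.4) against 158 (134.3 to 184.6) in vehicle replicate 3 of similar depth. Its log2 fold change was 1.07 (standard error 0.785), the smallest of the family, with an unadjusted p of 0.223 and an adjusted p of 0.519 in edgeR.

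**Figure D1:**
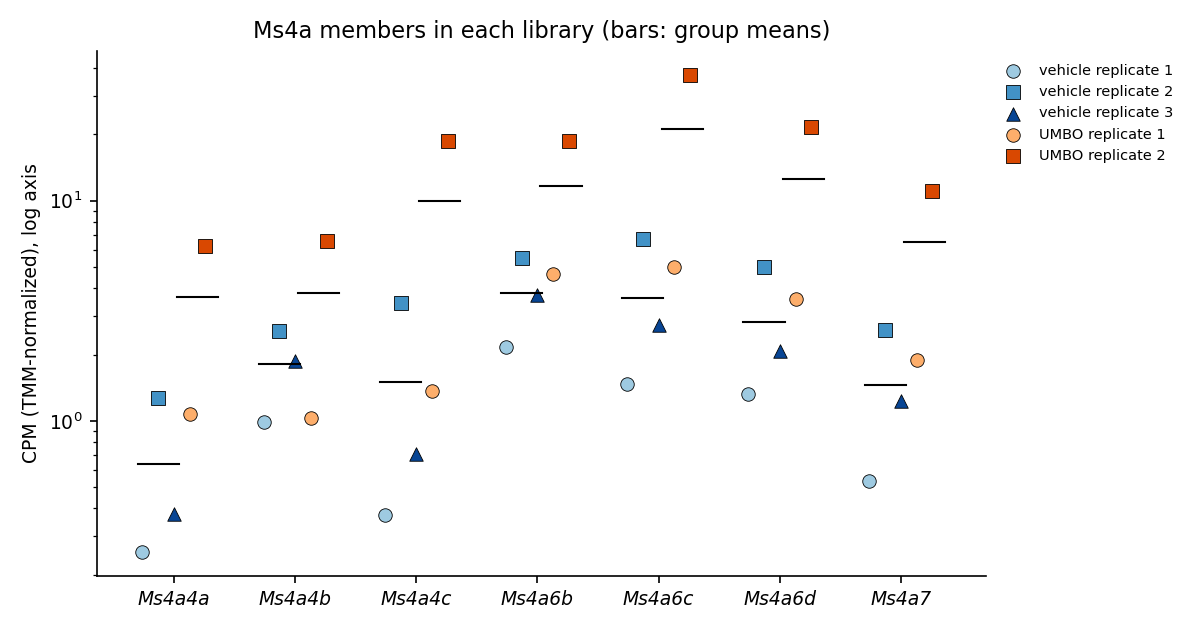
CPM of the 7 Ms4a genes (log axis) in the 3 vehicle libraries (blue) and the 2 UMBO libraries (orange), with black bars at the group means. UMBO replicate 2 is the highest library for every gene, and UMBO replicate 1 lies below vehicle replicate 2 for every gene.

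All 7 genes had enough reads for the test. All 7 had a log2 fold change above 0, as did 50.9% of all tested genes, and above 1, as did 11.4%. Their median was 2.17, against 0.01 over all genes. An unadjusted p under 0.05 on the higher side was found in 4 of the 7 (Ms4a4a, Ms4a6b, Ms4a6c and Ms4a6d), against 5.30% of all genes. None of the 7 passed after adjustment over all genes, in edgeR or in the DESeq2 Wald test, where 6 had an unadjusted p under 0.05 and the adjusted p ranged from 0.216 for Ms4a6c to 0.538 for Ms4a4b. In 0 of the 7 were the UMBO libraries both higher than all 3 vehicle libraries (11.5% of all genes) or both lower (11.4%). All 7 were highest in UMBO replicate 2 (40.4% of all genes) and all 7 were lowest in vehicle replicate 1 (24.0% of all genes).

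The order of the libraries was shared. From highest to lowest it was UMBO replicate 2, vehicle replicate 2, UMBO replicate 1, vehicle replicate 3 and vehicle replicate 1 in 6 of the 7 genes, an order found in 8.24% of all genes. Ms4a4b had vehicle replicate 3 before UMBO replicate 1, an order found in 1.99%. In the same 6 genes UMBO replicate 2 was at least 3 times every other library, against 3.27% of all genes, while in Ms4a4b it was 2.56 times the highest vehicle library. These orders and this 3-fold limit were chosen after the values were seen and are a description.

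The size of the difference rested on UMBO replicate 2. Without it the members' median log2 fold change was 0.354 and no member had an unadjusted p under 0.05 in edgeR, with 1.15% of all genes on the higher side. In that fit the log2 fold change was 0.77 for Ms4a4a, 0.46 for Ms4a6c, 0.38 for Ms4a7, 0.35 for Ms4a6d and 0.29 for Ms4a6b. It was -0.13 for Ms4a4c and -0.81 (standard error 0.594) for Ms4a4b. Without UMBO replicate 1, so that UMBO replicate 2 stood alone against the vehicle libraries and was assumed to vary as they do, all 7 had an adjusted p under 0.05 in edgeR, from 0.039 to 0.047, but 4543 genes then passed, and 10.1% of all genes did so on the higher side. The 4 members with an unadjusted p under 0.05 became 0 without vehicle replicate 1 (0.838% of all genes on the higher side) and 0 without vehicle replicate 3 (0.945%). They became 6 without vehicle replicate 2 (9.36%), with a median log2 fold change of 2.93.

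**Figure D2:**
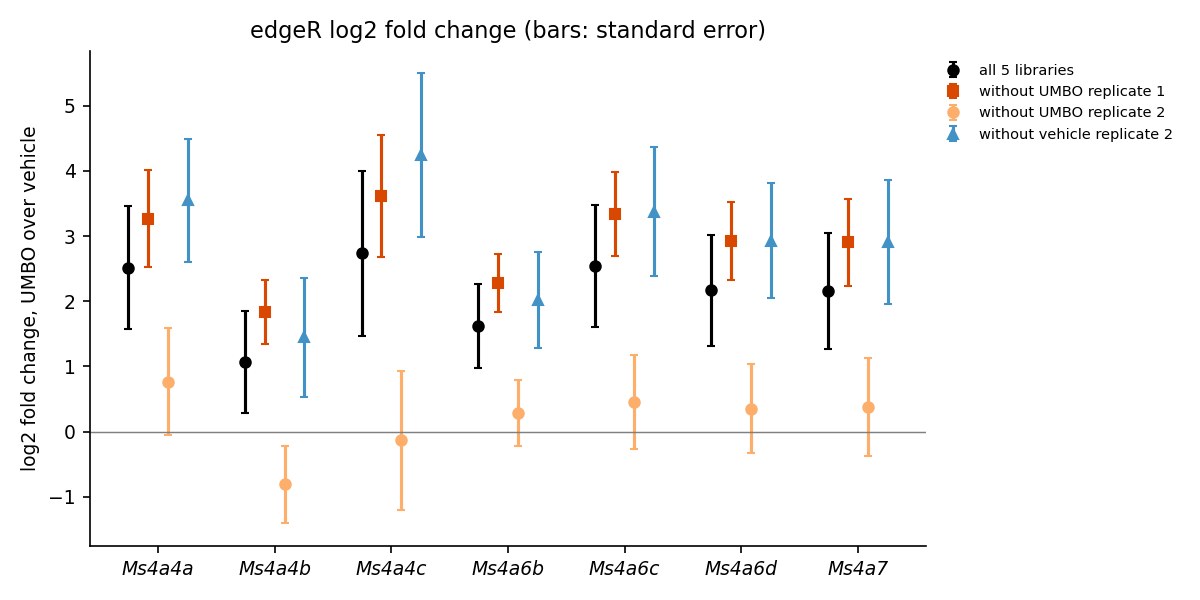
edgeR log2 fold change of UMBO over vehicle for each gene, with its standard error, from all 5 libraries and with 1 library left out. Without UMBO replicate 2 the values lie between -0.81 for Ms4a4b and 0.77 for Ms4a4a, and with all 5 libraries between 1.07 and 2.74.

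Other gene lists also differed between the libraries, and their part in the Ms4a values was not tested. Of 10 monocyte and macrophage genes, all 10 had a positive log2 fold change (50.9% of all genes), 3 with an unadjusted p under 0.05 in edgeR (5.30% of all genes on the higher side), 4 had the library order of the 6 Ms4a genes (8.24% of all genes), and their median was 1.92 (0.22 without UMBO replicate 2). Their summed level was 110.1 to 238.3 CPM with vehicle, and 217.1 and 598.7 CPM in UMBO replicates 1 and 2. The most abundant genes of a list weigh most in such a sum. The median of the 10 genes, relative to the vehicle mean on the log2 scale, was -0.967, 0.925 and -0.133 with vehicle. It was 0.485 and 3.197 with UMBO, so UMBO replicate 1 lay within the vehicle range. All 10 interferon response genes had a positive log2 fold change (50.9% of all genes), with a median of 1.53 (0.18 without UMBO replicate 2). In edgeR 1 of them had an unadjusted p under 0.05 (5.30% of all genes on the higher side), and in 0 was the UMBO pair above all 3 vehicle libraries (11.5%). The library order of the 6 Ms4a genes was found in 9 of the 10 (8.24% of all genes). Their summed level was 134.7 to 655.3 CPM with vehicle, 333.2 in UMBO replicate 1 and 1398 in UMBO replicate 2. All 10 proliferation genes had an unadjusted p under 0.05 in edgeR on the higher side (5.30% of all genes). None of these had that order, which is little to go on where 8.24% of all genes had it. Their sums were 50.0, 108.4 and 36.5 CPM with vehicle and 114.4 and 464.8 CPM with UMBO. None of these lists had a gene at 0 in every library.

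In 7 of 10 microglia markers the UMBO pair exceeded all 3 vehicle libraries (11.5% of all genes), and edgeR gave 6 an unadjusted p under 0.05 on the higher side (5.30%). The other 3 markers had a negative log2 fold change and were lowest in UMBO replicate 2. The median of all 10, relative to the vehicle mean on the log2 scale, was -0.13, 0.09 and 0.04 with vehicle and 0.58 and 0.62 with UMBO. The median of the 6 Ms4a genes other than Ms4a4b was -0.96, 1.13 and -0.18 with vehicle and 0.61 and 3.37 with UMBO. None of the 10 microglia genes had the library order of those 6, which only 8.24% of all genes had, so its absence from 10 genes says little. For 10 border macrophage genes the medians were -0.44, 0.32 and 0.15 with vehicle and 0.49 and 1.36 with UMBO. The median of 12 T and NK cell genes had the order of Ms4a4b, at -0.93, 0.87 and -0.14 with vehicle, -0.52 in UMBO replicate 1 and 1.97 in UMBO replicate 2, and 6 of the 12 genes had its order (1.99% of all genes). The other 6 did not, and 1 of the 12 had a negative log2 fold change.

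**Figure D3:**
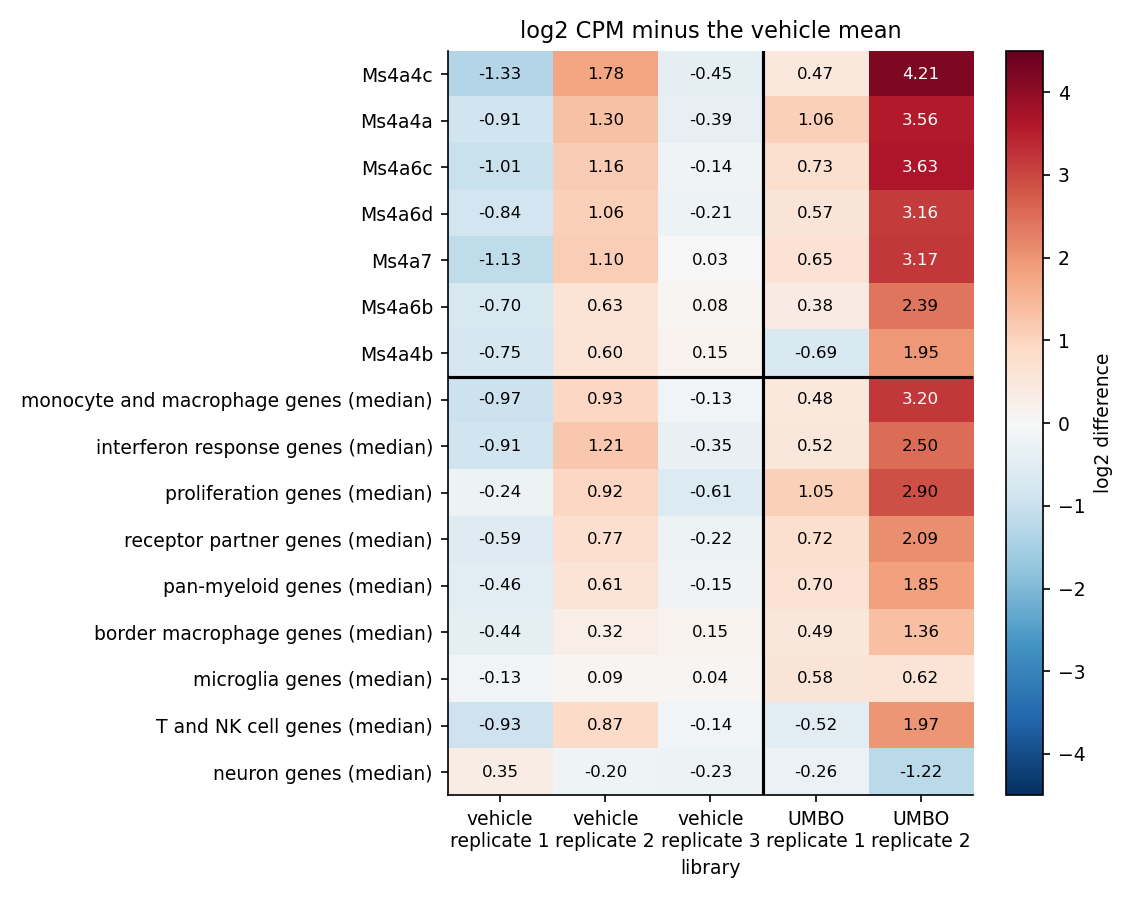
log2 CPM minus the vehicle mean in each library (columns) for the 7 Ms4a genes (upper rows) and the median of each gene list (lower rows), red above and blue below the vehicle mean. UMBO replicate 1 is negative for Ms4a4b (-0.69) and for the T and NK cell genes (-0.52), and positive for the other 6 Ms4a genes (0.38 to 1.06).

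Ratios within a library show how far each gene moved apart from these lists. Relative to the mean log2 CPM of 6 pan-myeloid genes (Aif1, Csf1r, Itgam, Laptm5, Ptprc and Cd68), Ms4a6c was at -0.51, 0.58 and -0.07 with vehicle and at 0.03 and 1.90 with UMBO, as log2 ratios whose vehicle mean is 0. These 6 genes themselves were at -0.51, 0.58, -0.07, 0.70 and 1.73 in the same order of libraries. Its range over the libraries shrank from 4.64 for the level to 2.40 for the ratio, so that UMBO replicate 2 stayed the highest after division by the myeloid genes. UMBO replicate 1 did not stand out. For Ms4a4a, Ms4a4c, Ms4a6d and Ms4a7 the ratio in UMBO replicate 2 was 1.82, 2.48, 1.43 and 1.44, and in UMBO replicate 1 it lay within the vehicle range. Of the 7 genes Ms4a6b had the narrowest range of this ratio, 0.98. It was at -0.32 and 0.66 with UMBO, outside the vehicle range of -0.20 to 0.15 on both sides. Its ratio to the T and NK cell genes had a similar range, 0.971, so it was not closer to the myeloid genes. A ratio higher in the UMBO pair than in all 3 vehicle libraries was found in 0 of the 7 genes and in 0.517% of all genes.

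Ms4a4b kept closer to the T and NK cell genes than to the myeloid genes, where its ratio had a range of 1.618. Its ratio to their mean log2 CPM was 0.09, -0.23 and 0.14 with vehicle and -0.31 and 0.18 with UMBO, a range of 0.491 where its level had a range of 2.7 on the log2 scale. For Ms4a4a, Ms4a6b, Ms4a6c, Ms4a6d and Ms4a7 the ratio to the T and NK cell genes was higher in the UMBO pair than in all 3 vehicle libraries, as in 3.47% of all genes. In UMBO replicate 1 these ratios were 1.44, 0.76, 1.11, 0.95 and 1.03.

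**Figure D4:**
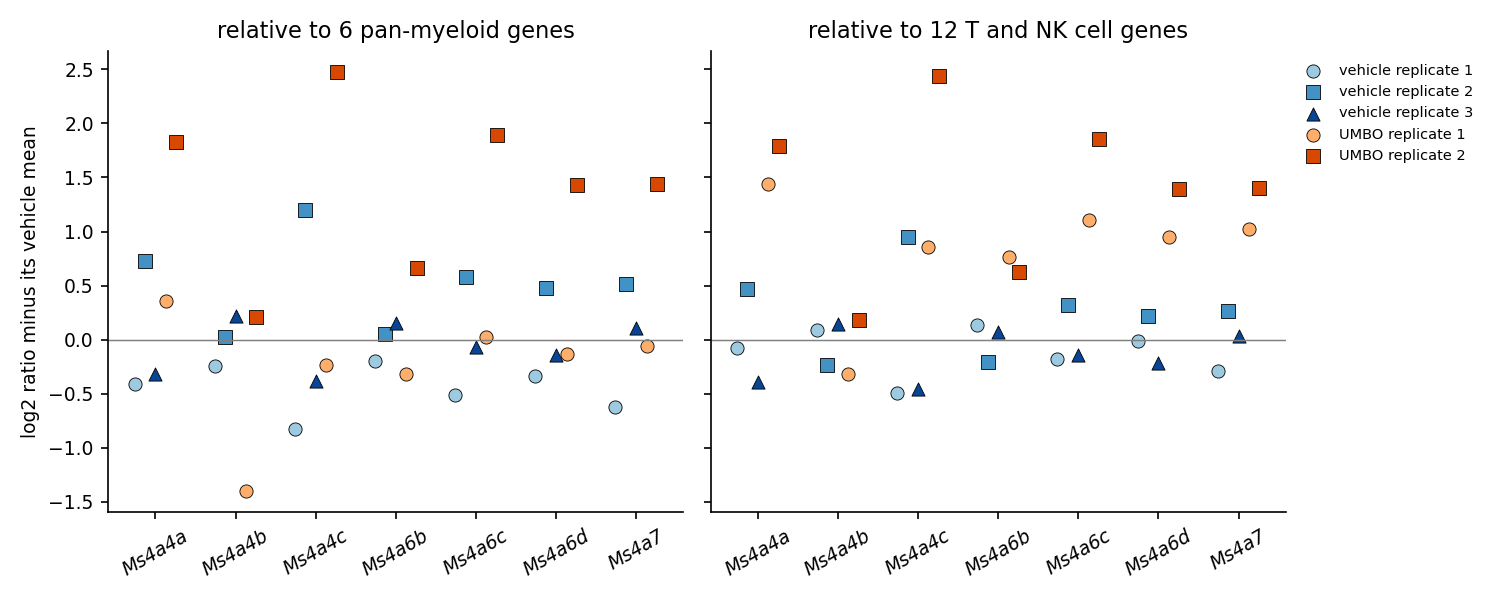
log2 ratio of each Ms4a gene to the mean of 6 pan-myeloid genes (left) and of 12 T and NK cell genes (right) in each library, with the vehicle mean of each ratio set to 0. On the right the 5 points of Ms4a4b lie between -0.31 and 0.18, and on the left Ms4a4c in UMBO replicate 2 reaches 2.48.

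The make-up of the family was compared as shares of the summed RPKM of the 7 genes. Ms4a6c held 26.4% to 28.2% with vehicle and 29.9% and 32.5% with UMBO. Ms4a4b held 2.49% to 4.53% with vehicle and 1.44% and 1.33% with UMBO. Its log2 ratio to Ms4a6c was -1.42 and -1.68 with UMBO and -0.55 to 0.29 with vehicle, without overlap. The ratio of Ms4a6d to Ms4a6c was also lower with UMBO without overlap, at -0.16 and -0.47 against -0.10 to 0.17, and so was that of 12.5% of all genes. Ms4a4c took 7.88%, 16.7% and 8.62% with vehicle and 9.60% and 18.9% with UMBO, so its share was high in the same 2 libraries in which the whole family was highest. These shares rest on exonic lengths and describe 5 libraries.

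**Figure D5:**
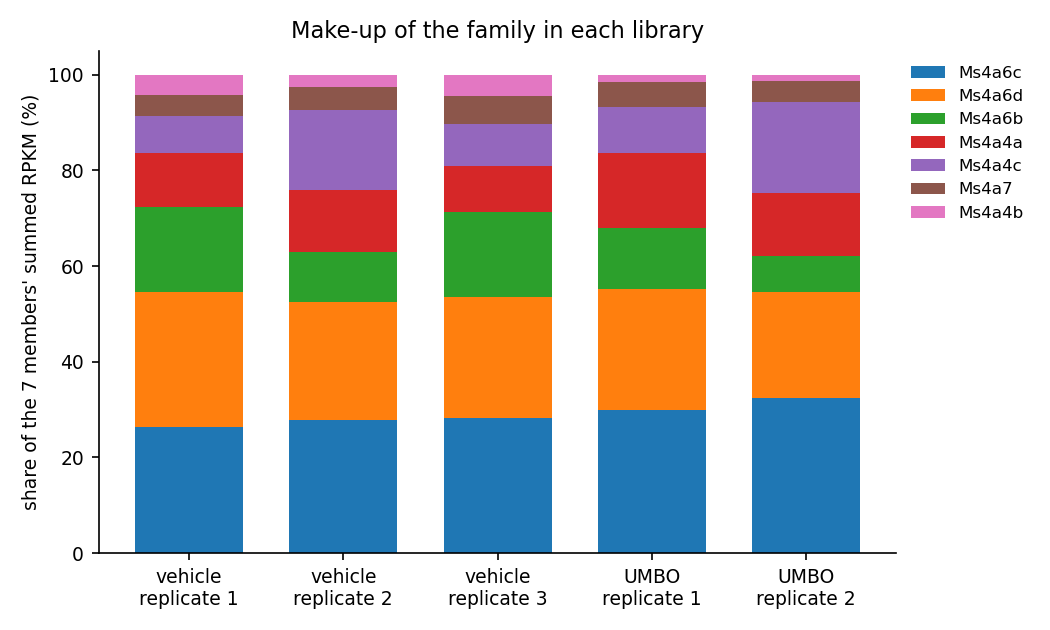
Share (%) of each gene in the summed RPKM of the 7 Ms4a genes in each library, from 0 to 100. Ms4a6c and Ms4a6d make up the lower part of every bar, and the share of Ms4a4c is widest in vehicle replicate 2 (16.7%) and UMBO replicate 2 (18.9%).

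Profiles were also compared by the root mean square difference between log2 CPM values centred on each gene's mean over the 5 libraries. Among the 21 pairs of members, Ms4a6d and Ms4a7 were the closest (0.171) although they lie at opposite ends of the 7-gene stretch. Ms4a4b and Ms4a4c, the neighbors with the similar upstream sequences, were the farthest apart (1.12). Ms4a6b and Ms4a6c were at 0.56. Of the 100-base words in their transcripts, 0.473% of those of Ms4a4b and 1.66% of those of Ms4a4c occur in another gene. For Ms4a4a, Ms4a6b, Ms4a6d and Ms4a7 the share was 0, and for Ms4a6c it was 45.8%, with BE692007 and Prdm11.

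The closest profiles outside the family were found for each member. For Ms4a4a they were Ccl12, a monocyte-attracting chemokine (0.09), Kcnn4 (0.109) and Cd300ld (0.129). For Ms4a4c they were Plac8 (0.153), the chemokine Ccl2 (0.196) and the monocyte antigen gene Ly6c2 (0.227). For Ms4a4b they were Lat, an adaptor of the T cell receptor (0.081), and 4930558J18Rik (0.128). Ms4a7 was closest to Ptx3 (0.129), Tulp2 (0.146) and the lysozyme gene Lyz2 (0.153). Ms4a6d was closest to Bcl3 (0.093), Gm25180 (0.104) and Tgfbi (0.119), Ms4a6c to Tulp2 (0.101), Maff (0.145) and Gm25180 (0.169), and Ms4a6b to Rps15a-ps7 (0.062), Tm4sf1 (0.086) and Gm45532 (0.088). With 5 libraries and 23585 genes to choose from, close profiles are a description.

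Genes for receptors and signalling proteins that MS4A proteins are known to associate with, or that act beside them, were also followed. All 10 log2 fold changes were positive (50.9% of all genes), with a median of 1.5 (0.52 without UMBO replicate 2), and 5 of them reached an unadjusted p under 0.05 in edgeR (5.30% of all genes on the higher side). In 4 of the 10 the groups did not overlap (11.5% of all genes were higher without overlap), and 6 of the 10 had the library order of the 6 Ms4a genes. Clec7a, which encodes dectin-1, had the largest log2 fold change, 2.06, with 2.49, 29.3 and 4.99 CPM with vehicle and 21.5 and 80.7 CPM with UMBO (unadjusted p = 0.106 in edgeR). Fcer1g, the gamma chain shared by several activating receptors, was next at 1.89. The kinase Syk and the phospholipase Plcg2, which act downstream of such receptors, had the smallest, 0.84 and 0.78. None passed after adjustment over all genes in edgeR.

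Of the 12 other Ms4a genes of the cluster, only Ms4a1, Ms4a4d, Ms4a14 and Ms4a15 had enough reads for the test. Ms4a4d, which lies between Ms4a6b and Ms4a6d, had the most reads of them in UMBO replicate 2. By exonic length its vehicle mean of 0.328 RPKM was close to that of Ms4a7 (0.326). With the median length of the protein-coding transcripts, which is the same 1513 bases for Ms4a4d, Ms4a7 was at 1.31 RPKM. Ms4a4d was at 0.388, 0.757 and 0.343 CPM with vehicle and 0.655 and 2.60 CPM with UMBO. This gave a log2 fold change of 1.71, with a standard error of 0.67, an unadjusted p of 0.0433 and an adjusted p of 0.497 in edgeR. UMBO replicate 1 was below vehicle replicate 2 here too. For Ms4a14 the log2 fold change was 1.07 (standard error 0.56). Ms4a15 held 0, 18, 7, 3 and 27 reads in vehicle replicates 1 to 3 and UMBO replicates 1 and 2. Ms4a8a held 1 to 14 reads. Ms4a5, Ms4a10 and Ms4a18 had 0 reads in all 5 libraries, which allows up to 0.0458 CPM in UMBO replicate 2, the shallowest (the level of 3 reads), and Ms4a12 and Ms4a13 had 1 read each. Outside the cluster, the related genes Tmem176a and Tmem176b had log2 fold changes of 0.83 and 0.94, with unadjusted p of 0.0726 and 0.0477 in edgeR.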

How the data were processed

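The authors mapped reads with STAR 2.7.2a to GRCm38 and deposited raw counts per Ensembl gene, 1 table per library. The annotation release and strand setting are not given in the sources used here. The 5 libraries, each labelled as a separate sample, were analysed. Symbols and positions for 55394 of 55573 genes came from GENCODE M21 (GRCm38), promoters from RefSeq (GRCm38.p6).

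Counts were normalized by TMM, filtered with filterByExpr, and 23592 genes were tested with edgeR 4.0.16 (quasi-likelihood, R 4.3.3), with Benjamini-Hochberg adjustment at 0.05. Whether the samples came from separate litters or cages is not stated, and p-values measure the spread between 5 libraries. Log2 CPM used a prior count of 2. Standard errors were derived from the log2 fold change and F statistic. DESeq2 1.42.0 (Wald test), other scalings and filters, a replicate block and each library left out were alternatives. No library pair differed by as little as sampling noise. Scripts were tested on simulated data.

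The members, gene lists and rules were chosen with earlier results of these data known. Named genes were all members, other Ms4a genes with counts, Tmem176a and Tmem176b, the 2 extremes at each end of the 10 partner genes, and the 3 closest profiles per member, of which 1 is not reported here.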

Additional observations from a re-analysis of the deposited data

How the results depend on the processing

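No member passed an adjusted p under 0.05 in edgeR under the other scalings and filters, and all 7 log2 fold changes stayed positive there. Signs turned only without UMBO replicate 2, for Ms4a4b (-0.811, with a range of -0.811 to 1.834 over the fits without 1 library) and Ms4a4c (-0.132, range -0.132 to 4.24), where the members' median moved to 0.354. Across the fits that left out 1 library the median ranged from 0.354 to 2.93, the members with an unadjusted p under 0.05 from 0 to 7, genes with an unadjusted p under 0.05 from 296 to 10165, and genes with an adjusted p under 0.05 from 0 to 4543. Genes with an unadjusted p under 0.05 numbered 4100 of 40435 with no filter on low counts. The DESeq2 Wald test gave 2639, and 42 after adjustment. The cause was not tested. With scaling by library size alone, the median over all genes went from 0.01 to 0.13 and the share of higher genes among those with an unadjusted p under 0.05 from 72.0% to 79.2%. The members' median was then 2.30.

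With the replicate number as a block, 2337 genes passed an adjusted p of 0.05 and 6134 an unadjusted one, and 6 of the 7 members passed after adjustment (adjusted p from 0.000368 for Ms4a6c to 0.00453 for Ms4a6b in edgeR), all but Ms4a4b (0.21). Vehicle replicate 3 was alone in its block, so the contrast rested on the other libraries, with little left to estimate the spread. The labels give the numbers no meaning beyond a count, only 2 are shared, and with 2 UMBO libraries the deviations mirror each other by construction (correlations 0.453 and 0.76), so the numbers do not establish pairs.

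Members rest on as few as 19 reads in a library, so counting error adds to the spread for Ms4a4a and Ms4a4c in vehicle replicate 1. Per-length levels of Ms4a4b, Ms4a4c, Ms4a6b and Ms4a7 moved by more than 1 SD with the other gene length.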

Other observations

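The members of the cluster that mark other blood lineages were close to the limit of detection. Ms4a1, which encodes CD20 of B cells, held 17, 11 and 8 reads with vehicle and 14 and 22 with UMBO. Its adjusted p in edgeR was 0.574 at a log2 fold change of 0.62 (standard error 0.565). Ms4a2, the IgE receptor beta chain of mast cells, held 3, 2 and 5 reads with vehicle and 7 and 3 with UMBO. Tpsb2, a mast cell tryptase named after its values were seen, held at most 54 reads in a library. It was at 0.0535, 0.148 and 0.0945 CPM with vehicle and 0.374 and 0.825 CPM with UMBO. Of 6 listed mast cell genes 5 had enough reads for the test, and 4 of these were higher with UMBO without overlap (11.5% of all genes). Hdc, the one with the most reads, overlapped between the groups, with a log2 fold change of 0.30 (standard error 0.445). Ms4a3, a gene of granulocyte and monocyte progenitors, had 0 reads in all libraries but UMBO replicate 2, where it had 4.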
